A study of Mus musculus with 16 samples.

Results

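The suppressors of cytokine signalling were followed in mouse hematopoietic stem cells (HSCs) sorted by MAC-1, at steady state (SS) and 4 weeks after transplantation. The family has 8 genes, *Socs1* to *Socs7* and *Cish*, which were taken from the gene counts by their symbols and stand on 8 of its 46078 lines. MAC-1 is a surface integrin of myeloid and natural killer cells, and *Itgam* encodes its CD11B chain. All 16 samples were wild-type B6.SJL cells, sorted as live LSK SLAM cells (lineage-negative, cKIT+, SCA1+, CD48-, CD150+) from cKIT-enriched bone marrow. There were 3 samples of SS MAC-1-, 3 of SS MAC-1low, 3 of 4 week MAC-1-, 4 of 4 week MAC-1low and 3 of 4 week MAC-1+ HSCs. The SS mice were labelled untreated. The 4 week HSCs came from recipients irradiated with 900 cGy that had received 8000 LSK cells. In the paper's serial transplantations, the recipients were of another strain than the B6.SJL donors and also received support marrow of their own strain. Irradiation, transplantation and regeneration therefore cannot be told apart in any comparison with SS. The labels number the samples of each population but do not say whether they were separate mice or pools. A p-value here therefore measures the spread between these samples, which may in part be technical.

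Cytokines such as thrombopoietin, interleukins and interferons bind receptors that carry JAK kinases. The kinases phosphorylate STAT factors, which enter the nucleus and switch on genes, among them some of the suppressors themselves. CIS (from *Cish*) and the SOCS proteins share an SH2 domain, by which they bind phosphorylated receptors or kinases, and a SOCS box, by which they bring elongins and a cullin ubiquitin ligase to what they have bound. SOCS1 and SOCS3 also block JAK kinases directly through a kinase inhibitory region. CIS and SOCS2 are known as feedback inhibitors downstream of STAT5, the factor that thrombopoietin, erythropoietin and growth hormone activate, while SOCS4 to SOCS7 are linked more to growth factor and insulin receptors.

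The promoters were searched for the cores that factors of these pathways bind. Windows of 300 bases, 250 before and 50 after the transcription start, were held in RefSeq (build GRCm38.p6) for 4 of the 8 members, *Cish*, *Socs1*, *Socs3* and *Socs4*, and were not at hand for *Socs2*, *Socs5*, *Socs6* and *Socs7*. Each was searched on both strands for TTCNNNGAA, the core that STAT factors bind, and for GAAA, 2 bases of any kind and GAAA, the core that interferon regulatory factors bind. The 3 windows with a match are shown 5′ to 3′ on the strand of the gene, with the matches in capitals.

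Cish (chr9:107296409-107296708, plus strand): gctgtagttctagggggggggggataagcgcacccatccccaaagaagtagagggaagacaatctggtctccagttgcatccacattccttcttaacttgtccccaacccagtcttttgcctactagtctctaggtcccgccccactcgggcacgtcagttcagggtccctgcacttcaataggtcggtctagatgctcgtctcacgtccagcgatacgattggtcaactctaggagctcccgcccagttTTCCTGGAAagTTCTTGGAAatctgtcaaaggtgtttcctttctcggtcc
Socs3 (chr11:117969317-117969616, minus strand): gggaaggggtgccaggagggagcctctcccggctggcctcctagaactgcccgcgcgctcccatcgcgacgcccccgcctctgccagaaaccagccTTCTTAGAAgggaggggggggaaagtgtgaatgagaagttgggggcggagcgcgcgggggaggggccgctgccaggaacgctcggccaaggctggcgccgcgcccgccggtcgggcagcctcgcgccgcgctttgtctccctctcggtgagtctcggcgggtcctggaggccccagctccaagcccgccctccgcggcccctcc
Socs1 (chr16:10785487-10785786, minus strand): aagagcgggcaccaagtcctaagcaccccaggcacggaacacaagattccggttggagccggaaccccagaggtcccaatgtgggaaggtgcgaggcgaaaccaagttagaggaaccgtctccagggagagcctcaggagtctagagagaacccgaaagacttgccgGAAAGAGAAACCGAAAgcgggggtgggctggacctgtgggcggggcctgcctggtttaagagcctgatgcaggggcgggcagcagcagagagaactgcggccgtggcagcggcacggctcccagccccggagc

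The *Cish* window held 2 STAT cores, TTCCTGGAA at position 1 and TTCTTGGAA at position 12 counted from the RefSeq start, which lies inside the gene as GENCODE draws it. The *Socs3* window held 1, TTCTTAGAA at position -154. Its RefSeq start also lies inside the gene as GENCODE draws it, and so does the match. Among all 32851 RefSeq windows of this length, 8.30% held at least 1 such core and 0.457% held at least 2. The *Socs1* window held 2 interferon cores that overlap, GAAAGAGAAA at position -83 and GAAACCGAAA at position -77, and 0.225% of all windows held 2 or more, against 3.44% with at least 1. The *Socs4* window held neither motif. A match describes the letters of the window and was not tested as a binding site.

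The samples held 13781278 to 28580658 counts in total and 14533 to 17576 genes with a count, and mitochondrial genes took 3.96 to 9.62% of the counts. A count of 0 allowed up to 3 counts, or 0.112 to 0.220 CPM (counts scaled to the size of the library) depending on the sample, and this limit covers counting error only. *Itgam* was at 3.80 to 30.0 CPM in 4 week MAC-1+ HSCs and at 0 to 1.78 CPM in both MAC-1- populations, with MAC-1low samples at 0.112 to 4.36 CPM. All 8 genes of a list of HSC markers had counts in every population, and their summed level was 765 to 979.6 CPM in 4 week MAC-1-, 1559 to 2261 CPM in SS and 4 week MAC-1low and 2409.8 to 3609 CPM in 4 week MAC-1+ samples. A list of 8 megakaryocyte genes ran the other way after transplantation, at 4274 to 6753 CPM in 4 week MAC-1-, 355 to 869.9 CPM in 4 week MAC-1low and 157 to 207 CPM in 4 week MAC-1+ samples. A list of 9 neutrophil genes summed to 164, 957 and 7330 CPM in the 4 week MAC-1+ replicates 1, 2 and 3 and to at most 168 CPM elsewhere. Lists of 7 T cell and 7 B cell genes stayed at or under 7.15 and 156 CPM. Monocyte and macrophage genes summed to 346 to 762 CPM, natural killer genes to 16.1 to 642 CPM and erythroblast genes to at most 189 CPM. In sorted bulk samples, more cells that express a gene and more RNA per cell cannot be told apart.

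All 8 members passed the filter on low counts, and their levels spanned a wide range. Per kilobase of exon, the mean level over the 16 samples was highest for *Socs4*, at 19.2 CPM, followed by *Socs2* at 16.8, *Socs5* at 9.79 and *Socs6* at 6.75 CPM per kilobase. *Cish* stood at 3.21, *Socs7* at 1.17, *Socs1* at 0.480 and *Socs3* at 0.209 CPM per kilobase. Counted over the longest transcript instead of all exons, *Socs2* came first at 37.6 and *Socs4* second at 19.2 CPM per kilobase, and the other ranks did not move. The counts behind these levels averaged 1281 to 3239 per sample for the first 4 genes, 409 for *Cish* and 161 for *Socs7*, but only 31.1 for *Socs1* and 13.6 for *Socs3*. The direct inhibitors of JAK kinases thus had the lowest levels of the family.

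**Figure D1:**
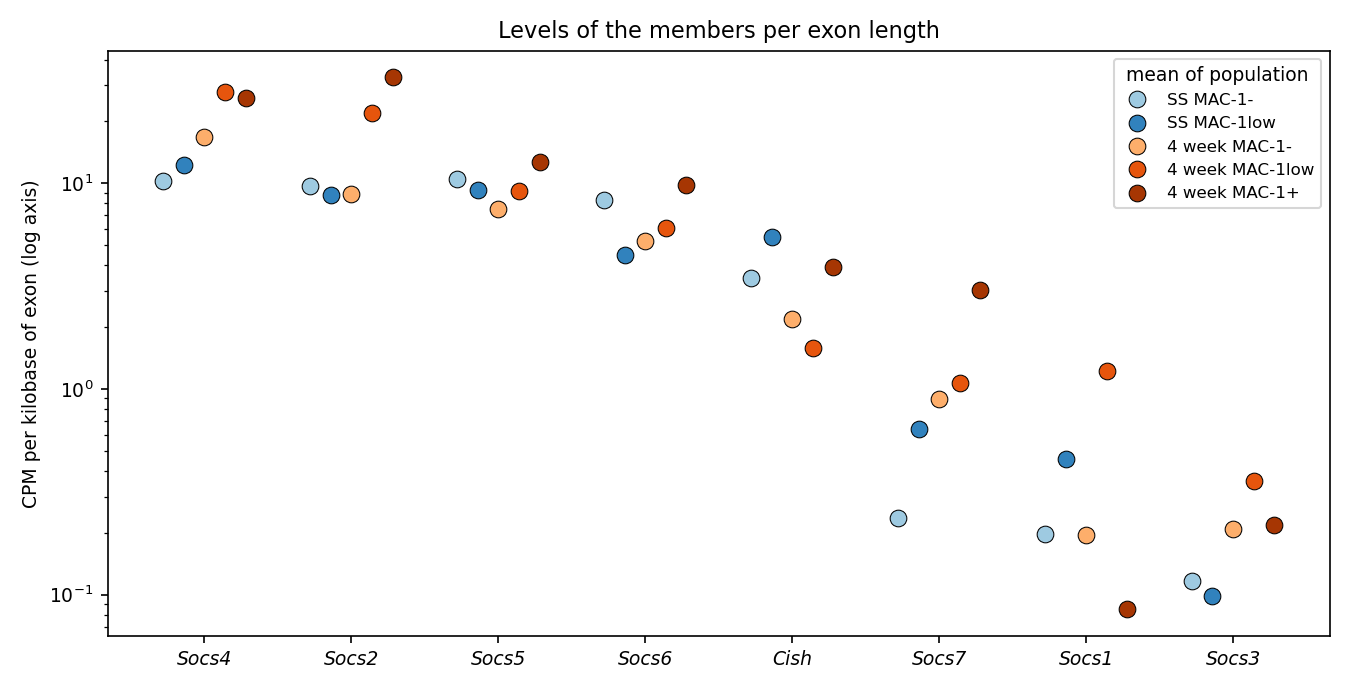
Mean level of each member in CPM per kilobase of exon (log axis), with 1 point for each of the 5 HSC populations and members ordered by their mean over all samples. The members run from 19.2 CPM per kilobase for *Socs4* down to 0.209 for *Socs3*, and the points of *Socs2* split into 3 low populations and 2 high ones, 4 week MAC-1low and 4 week MAC-1+.

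*Socs2* was the member whose level differed most clearly between populations. It encodes an inhibitor of growth hormone and STAT5 signalling (ENSMUSG00000020027, chromosome 10, 95385362 to 95417180, minus strand, GRCm38). In the 4 week MAC-1+ replicates 1 to 3 it was at 405, 227 and 305 CPM, and in the 4 week MAC-1low replicates 1 to 4 at 261, 168, 193 and 214 CPM. All 7 of these samples lay above all 9 others. The 4 week MAC-1- samples were at 97.8, 79.6 and 76.4 CPM, the SS MAC-1- samples at 65.0, 117 and 93.8 CPM and the SS MAC-1low samples at 29.3, 106 and 116 CPM. The 3 low populations overlapped one another, and so did both high ones.

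The mean *Socs2* level was 312 CPM ± 88.8 (SD, n = 3) in 4 week MAC-1+ and 84.6 CPM ± 11.5 (SD, n = 3) in 4 week MAC-1- HSCs. Between these populations *Socs2* rose by a log2 fold change of 1.88 (SE 0.42, 95% interval 1.00 to 2.77, adjusted p = 0.0292 by edgeR's quasi-likelihood test), in a comparison where 2.47% of all tested genes were called. It also rose against SS MAC-1- (log2 fold change 1.76, SE 0.41, adjusted p = 0.0595 by edgeR) and against SS MAC-1low HSCs (1.90, SE 0.42, adjusted p = 0.0664 by edgeR), 2 comparisons that share the same 3 MAC-1+ samples with the first. Here and throughout, a gene was called where its adjusted p was below 0.1 and its log2 fold change above 1 in size, the thresholds of the study. The study named *Socs2* among HSC genes chosen on these samples, so these values are not independent evidence of its direction. These calls were lost when some single samples were left out, in 2 of 16 such fits against 4 week MAC-1- and in 4 of 16 against each SS population. Against 4 week MAC-1- HSCs, the adjusted p of edgeR became 0.126 without 4 week MAC-1- replicate 2 and 0.127 without replicate 3, at log2 fold changes of 1.84 and 1.82. In the comparison with SS MAC-1- HSCs, leaving out replicate 1 or 3 of these gave 0.170 and 0.131, and leaving out replicate 1 or 3 of the MAC-1+ samples gave 0.163 and 0.119. In the comparison with SS MAC-1low HSCs it became 0.150 without replicate 2 of these, 0.103 without replicate 3 of 4 week MAC-1low, and 0.168 or 0.133 without MAC-1+ replicate 1 or 3. The sums of the HSC list were highest and those of the megakaryocyte list lowest in the same MAC-1+ samples, and their part in the *Socs2* difference was not tested. Without the MAC-1+ replicate with 7330 CPM of neutrophil genes, the log2 fold change of *Socs2* against 4 week MAC-1- HSCs was 1.93, with an adjusted p of 0.0694 by edgeR.

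In 4 week MAC-1low HSCs the mean *Socs2* level was 209 CPM ± 39.3 (SD, n = 4), with no overlap with 4 week MAC-1- HSCs. The log2 fold change of 1.30 (SE 0.39, 95% interval 0.47 to 2.14) had an unadjusted p of 0.00449 and an adjusted p of 0.374 by edgeR, and so did not pass. DESeq2, the tool of the study, gave an adjusted p of 0.0292 and limma-voom 0.0629 for the same difference, and edgeR gave 0.0927 without SS MAC-1low replicate 1, a sample outside the comparison. Against SS MAC-1low HSCs the log2 fold change was 1.32 (SE 0.39, 95% interval 0.48 to 2.15, adjusted p = 0.372 by edgeR and 0.0343 by DESeq2). It was 0.90 without SS MAC-1low replicate 1, the sample with the lowest *Socs2* level. The MAC-1low and MAC-1+ samples of 4 weeks overlapped, at a log2 fold change of 0.58 (95% interval -0.22 to 1.38, adjusted p = 0.853 by edgeR).

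At steady state no such difference was seen, and *Socs2* averaged 83.8 CPM ± 47.5 (SD, n = 3) in MAC-1low and 92.0 CPM ± 26.2 (SD, n = 3) in MAC-1- HSCs. The log2 fold change was -0.13 (95% interval -0.99 to 0.72, adjusted p = 0.990 by edgeR). The interaction, which asks if the step from MAC-1- to MAC-1low was of another size after transplantation than at SS, gave 1.44 on the log2 scale (SE 0.56, 95% interval 0.25 to 2.63, unadjusted p = 0.0208, adjusted p = 0.484 by edgeR) and did not pass. Between 4 week and SS MAC-1- HSCs the log2 fold change of *Socs2* was -0.12 (95% interval -0.98 to 0.74).

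**Figure D2:**
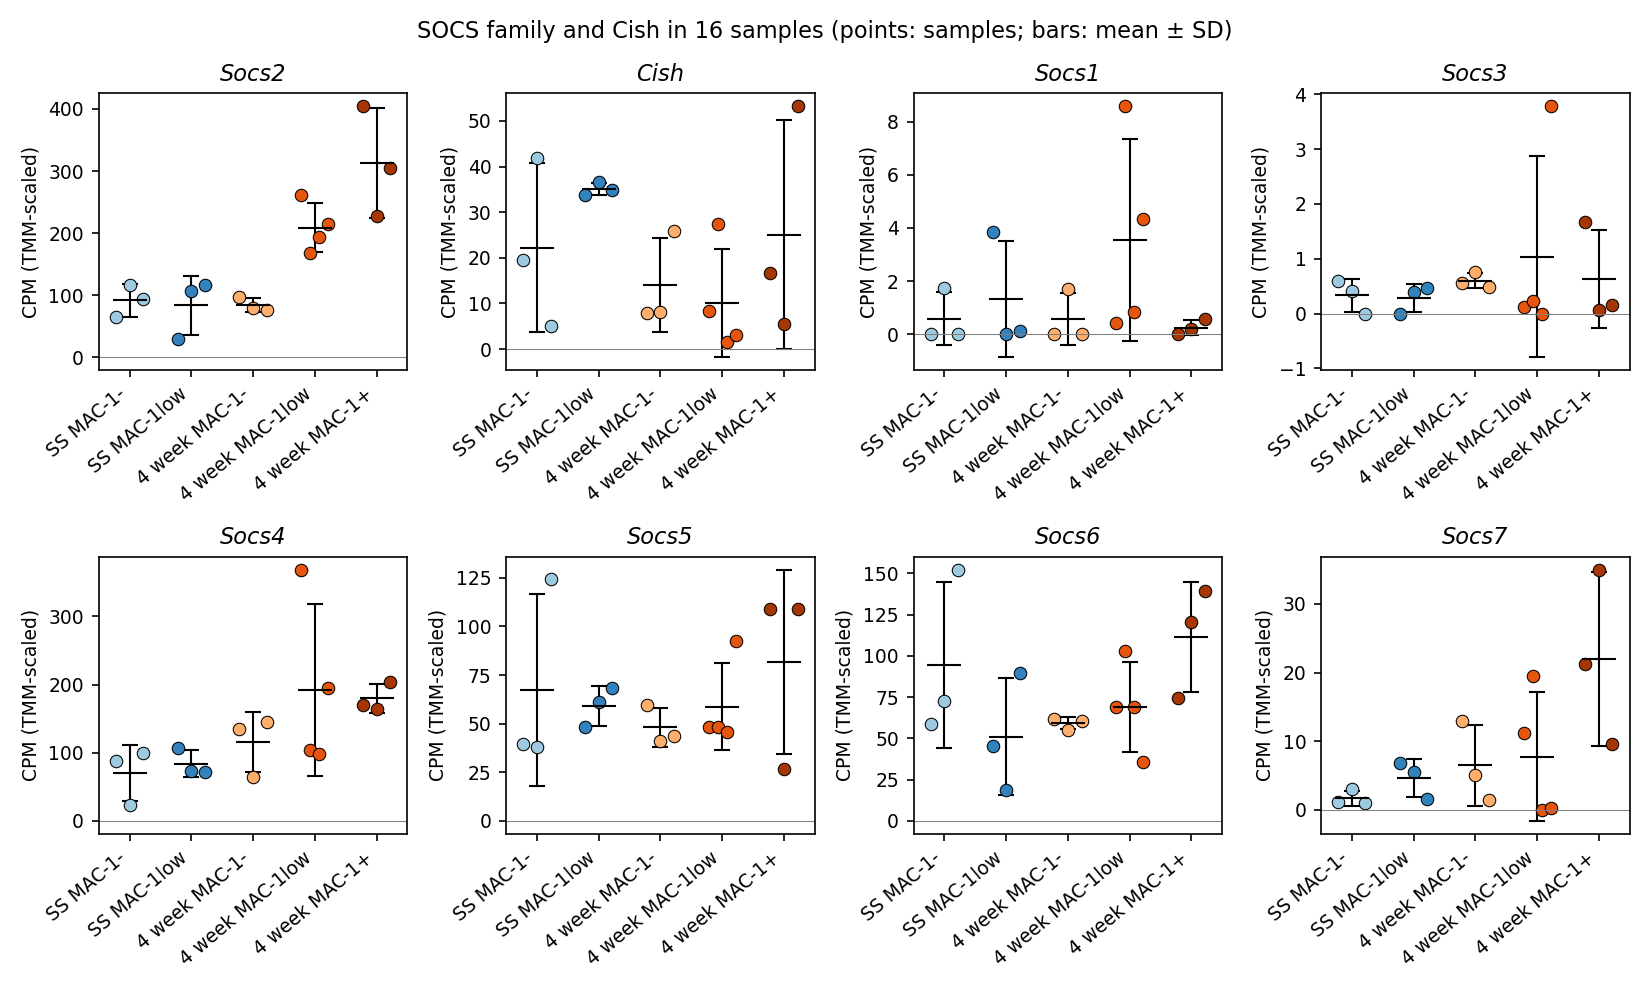
Level of each member in CPM (linear axes, one scale per gene) in the 16 samples, grouped by HSC population. Points are samples and bars the mean ± SD (n = 3, or 4 for 4 week MAC-1low; an SD bar can reach below 0, a level cannot). All 7 *Socs2* points of 4 week MAC-1low and MAC-1+ lie above the 9 others, whereas *Cish*, *Socs1*, *Socs3* and *Socs7* spread widely within populations.

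*Cish*, the other member known as a STAT5 feedback gene (ENSMUSG00000032578, chromosome 9, 107296026 to 107302784, plus strand, GRCm38), did not follow *Socs2*. It was at 33.8, 36.5 and 34.9 CPM in SS MAC-1low replicates 1 to 3 and at 19.5, 41.9 and 5.18 CPM in SS MAC-1- HSCs. After transplantation it was at 7.91, 8.23 and 26.0 CPM in MAC-1-, at 8.34, 27.5, 1.54 and 3.07 CPM in MAC-1low and at 16.7, 5.40 and 53.2 CPM in MAC-1+ HSCs. The SS MAC-1low samples were close to each other, with a coefficient of variation of 3.90%, whereas the 4 week MAC-1low samples spread 118%, and all 4 of them lay under the 3 SS MAC-1low samples. That difference, a log2 fold change of -1.79 (SE 1.00, 95% interval -3.93 to 0.34), had an adjusted p of 0.625 by edgeR and did not pass. From MAC-1- to MAC-1+ at 4 weeks the log2 fold change of *Cish* was 0.84 (SE 1.07, adjusted p = 0.848 by edgeR), and it was -0.33 without 4 week MAC-1+ replicate 3, the sample with the highest *Cish* level and the highest neutrophil sum. The annotation places a pseudogene and an antisense gene on the opposite strand inside *Cish*, with at most 21 and 0 counts in any sample, and whether the counting used strand is not given in the sources used here.

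*Socs1* and *Socs3*, which encode the inhibitors of JAK kinases induced by interferons and by interleukin 6 type cytokines, had low counts in most samples. They were at or under 3 counts, the limit for a count of 0, in 8 and 5 of 16 samples. *Socs1* (ENSMUSG00000038037, chromosome 16, 10782240 to 10785536, minus strand, GRCm38) had 0, 33 and 0 counts in SS MAC-1- samples, 74, 0 and 2 in the MAC-1low samples of SS and 0, 45 and 0 in 4 week MAC-1- HSCs. It had 7, 187, 16 and 116 counts in 4 week MAC-1low and 0, 3 and 14 in 4 week MAC-1+ HSCs. *Socs1* was thus at 0 in 6 of 16 samples and present in all 4 samples of 4 week MAC-1low HSCs, with a mean of 3.55 CPM ± 3.79 (SD, n = 4) there. *Socs3* (ENSMUSG00000053113, chromosome 11, 117966079 to 117970047, minus strand, GRCm38) had 8, 8 and 0 counts in SS MAC-1- samples, 0, 7 and 9 in the MAC-1low samples of SS and 9, 20 and 8 in 4 week MAC-1- HSCs. It had 2, 5, 0 and 101 counts in 4 week MAC-1low and 35, 1 and 4 in 4 week MAC-1+ HSCs, and was at 0 in 3 of 16 samples. The single sample with 101 counts, 4 week MAC-1low replicate 4, also held 116 counts of *Socs1*. No difference between populations was detected, and neither gene had an unadjusted p below 0.05 by edgeR in any of the 8 comparisons, those with 4 week MAC-1low included. For 4 week MAC-1+ against MAC-1- HSCs, each sample was also left out in turn. The adjusted p of edgeR then stayed between 0.614 and 0.983 for *Socs1* and between 0.778 and 1 for *Socs3*. For both genes the sign of the fold turned with the test and with single samples, and its values are given further below with that limit.

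*Socs4*, known for action on the epidermal growth factor receptor (ENSMUSG00000048379, chromosome 14, 47276931 to 47296102, plus strand, GRCm38), had the highest level per kilobase of exon. It was at 170.4, 164 and 205 CPM in 4 week MAC-1+ replicates 1 to 3 and at 369, 104, 98.7 and 195 CPM in 4 week MAC-1low replicates 1 to 4. It was at 135, 65.0 and 146 CPM in 4 week MAC-1-, 88.4, 23.6 and 99.98 CPM in SS MAC-1- and 108, 73.6 and 71.4 CPM in SS MAC-1low HSCs. All 3 MAC-1+ samples lay above each of the MAC-1- and SS samples, while the MAC-1low samples spanned more than the whole MAC-1+ range. The log2 fold change of 4 week MAC-1+ against SS MAC-1- HSCs was 1.35 (SE 0.55, 95% interval 0.18 to 2.51, unadjusted p = 0.0264, adjusted p = 0.290 by edgeR and 0.0945 by DESeq2). Of 4 week MAC-1low against SS MAC-1low HSCs it was 1.19 (SE 0.52, unadjusted p = 0.0374, adjusted p = 0.544 by edgeR and 0.254 by DESeq2). Against 4 week MAC-1- HSCs it was 0.64 in MAC-1+ (SE 0.54, 95% interval -0.51 to 1.79, adjusted p = 0.701 by edgeR). None of these passed edgeR's test over all genes.

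*Socs5*, known for inhibition of interleukin 4 and epidermal growth factor signalling (ENSMUSG00000037104, chromosome 17, 87107679 to 87137839, plus strand, GRCm38), showed no separation between populations. It was at 109, 26.9 and 109 CPM in 4 week MAC-1+, 59.8, 41.1 and 43.7 CPM in 4 week MAC-1- and 48.4, 48.4, 45.9 and 92.5 CPM in 4 week MAC-1low HSCs. The lowest value of all 16 samples, in 4 week MAC-1+ replicate 2, stood in the population with the highest mean. In SS HSCs it was at 39.8, 37.9 and 124 CPM in MAC-1- and at 48.2, 61.3 and 68.5 CPM in MAC-1low. No neighbours in the order of the 5 means were separated beyond their ranges. The log2 fold change of 4 week MAC-1+ against MAC-1- HSCs was 0.76 (SE 0.56, 95% interval -0.42 to 1.95, adjusted p = 0.631 by edgeR).

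*Socs6*, linked to insulin receptor and KIT signalling (ENSMUSG00000056153, chromosome 18, 88665224 to 88927481, minus strand, GRCm38), was at 74.6, 120.3 and 139 CPM in 4 week MAC-1+ and at 62.0, 55.4 and 60.4 CPM in 4 week MAC-1- HSCs, with no overlap. Its spread in 4 week MAC-1- HSCs, a coefficient of variation of 5.83%, was small beside those of the 4 other populations, which ran from 29.8 to 69.5%. It was at 69.1, 103, 69.1 and 35.8 CPM in 4 week MAC-1low, 58.9, 72.7 and 152 CPM in SS MAC-1- and 45.1, 19.0 and 89.3 CPM in SS MAC-1low HSCs. The SS samples ran from 19.0 to 152 CPM, a range that holds every 4 week sample. The log2 fold change of 4 week MAC-1+ against MAC-1- HSCs was 0.91 (SE 0.53, 95% interval -0.22 to 2.04, adjusted p = 0.495 by edgeR).

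*Socs7*, linked to insulin signalling and to adaptor proteins (ENSMUSG00000038485, chromosome 11, 97362551 to 97398542, plus strand, GRCm38), was at 21.2, 35.0 and 9.65 CPM in 4 week MAC-1+ HSCs. It was at 1.10, 2.99 and 1.03 CPM in SS MAC-1- and 6.89, 5.48 and 1.60 CPM in SS MAC-1low HSCs, all under the MAC-1+ samples. The 4 week MAC-1- samples, at 13.0, 5.08 and 1.45 CPM, and the 4 week MAC-1low samples, at 11.2, 19.5, 0.0514 and 0.337 CPM, overlapped with MAC-1+. The 2 lowest of these were 1 and 9 counts, beside 183 and 424 counts in the other 2 samples of the same population. The log2 fold change of 4 week MAC-1+ against SS MAC-1- HSCs was 3.68 (SE 1.67, 95% interval 0.12 to 7.24, unadjusted p = 0.0437, adjusted p = 0.342 by edgeR and 0.0737 by DESeq2), and against 4 week MAC-1- HSCs it was 1.75 (SE 1.54, 95% interval -1.54 to 5.05, adjusted p = 0.721 by edgeR).

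**Figure D3:**
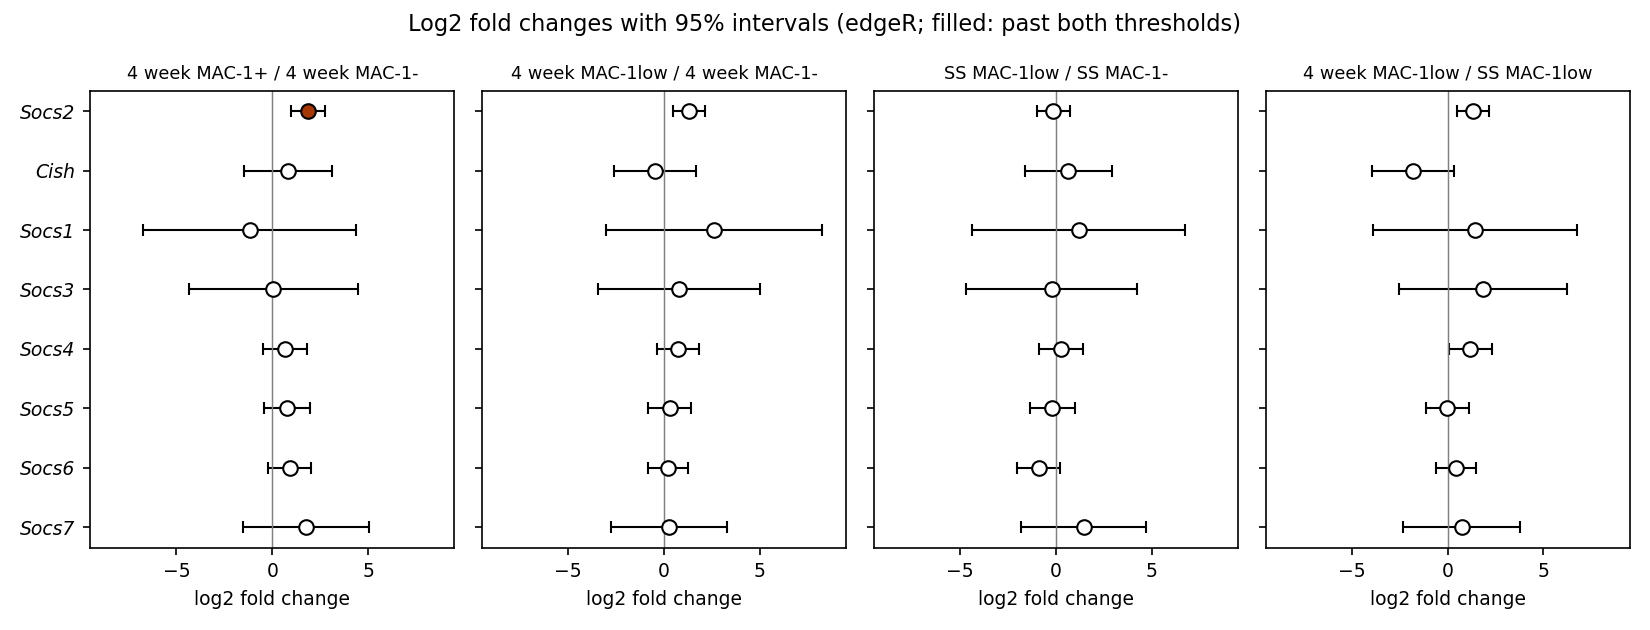
Log2 fold change of each member (points) with its 95% interval (bars) in 4 comparisons, from edgeR's fit to all genes, and filled where the adjusted p was below 0.1 and the absolute change above 1. The *Socs2* point of 4 week MAC-1+ over MAC-1-, at 1.88, is the single filled one, and the intervals of *Socs1* and *Socs3* reach past 4 on both sides of 0 in that comparison.

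Over the whole family, 1 of 8 members, *Socs2*, was called by edgeR between the MAC-1+ and MAC-1- HSCs of 4 weeks, where 2.47% of all 13661 tested genes were called, 1.11% as higher and 1.37% as lower. DESeq2 also called *Socs2* alone, with 8.61% of its genes called. In that comparison 7 of 8 members had a positive log2 fold change and the members' median was 0.80, beside 52.4% of all genes and a median of 0.07. The signs of 3 members were not stable there. *Socs3* was at 0.06 in edgeR, -1.16 in limma-voom and -2.36 without 4 week MAC-1+ replicate 1, *Cish* was at -0.33 without 4 week MAC-1+ replicate 3, and *Socs1* was at -1.18 in edgeR and 0.62 in limma-voom. For 3 of 8 members, *Socs2*, *Socs4* and *Socs6*, all samples of one group lay on one side of the other, and the same held for 21.7% of all genes. The comparisons of 4 week MAC-1+ with SS HSCs use the same 3 MAC-1+ samples again. There edgeR called 1 of 8 members, *Socs2*, against SS MAC-1- (1.7% of all genes) and against SS MAC-1low HSCs (1.02%). DESeq2 called 3 of 8 against SS MAC-1-, *Socs2*, *Socs4* and *Socs7* (9.15% of all genes), and 1 of 8, *Socs2*, against SS MAC-1low (6.89%). *Socs2*, *Socs4* and *Socs7* did not overlap with either SS population, as 17% of all genes did not with SS MAC-1- and 16.3% with SS MAC-1low.

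For 4 week MAC-1low against MAC-1- HSCs, edgeR called 0 of 8 members and 0.183% of all genes, and 1 member, *Socs2*, had an unadjusted p below 0.05. There *Socs2* was called by DESeq2 and by limma-voom, with 2.65% and 1.5% of all genes called, and *Socs2* was the 1 member without overlap (10.8% of all genes). For 4 week against SS MAC-1low HSCs, edgeR called 0 of 8 (0.0439% of all genes), with *Socs2* and *Socs4* below an unadjusted p of 0.05, while DESeq2 called *Socs2* (3.4% of all genes) and limma-voom called 0. There *Socs2* was higher and *Cish* lower without overlap (10.4% of all genes). In 3 comparisons every one of the 3 tools called 0 of 8 members, and by edgeR 0 had an unadjusted p below 0.05. These were SS MAC-1low against SS MAC-1- (0.0146% of all genes by edgeR), 4 week against SS MAC-1- (0.381%) and 4 week MAC-1+ against MAC-1low HSCs (0%). For the interaction all 3 tools called 0 of 8, edgeR called 0.0586% of all genes, and 1 member, *Socs2*, had an unadjusted p below 0.05.

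The members' patterns across the 16 samples were compared as a description, over points that share their libraries. *Socs2* and *Socs4* were the pair with the highest Pearson's r, at 0.46, and *Socs3* and *Socs6* the pair with the lowest, at -0.41. *Socs2* and *Cish* were at -0.24 and *Socs1* and *Socs3* at -0.03. Among 9678 genes with a mean of at least 100 counts, those most like *Socs2* were *Ly75*, a lectin receptor of dendritic cells (r = 0.86), *Oasl2*, an interferon-induced gene (0.86), and *Ms4a6c* (0.85). Those most like *Cish* were *Tfpt* (0.85) and the mitotic genes *Cdc20* (0.79) and *Pttg1* (0.79). *Socs4* went most closely with *Qk*, which encodes an RNA-binding protein (0.88), *Slc38a2*, an amino acid transporter (0.83), and *Prkce*, a protein kinase C (0.83). For *Socs5* they were *Atg3*, an autophagy enzyme (0.82), *Hs1bp3* (0.79) and *Mysm1*, a histone H2A deubiquitinase (0.76). For *Socs6* they included *Eef2k* (0.83) and *Spry1* (0.81), and for *Socs7* they were *Focad* (0.79), *Ifi44* (0.73) and *Nudt18* (0.71). With Spearman's rho, 3 of 3 genes for *Socs5*, 2 of 3 for *Socs7*, 1 of 3 for *Socs2* and *Cish* and 0 of 3 for *Socs4* were again among the closest.

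Around the family, 93 genes of cytokine signalling were listed, of which 85 were tested. In 4 week MAC-1+ against MAC-1- HSCs, 2 were called higher and 1 lower by edgeR, 3 of 85 beside 2.47% of all genes, and the median log2 fold change was 0.69 beside 0.07 for all genes. The genes called were *Ptprc*, *Gbp2* and *Tceb2*. *Ptprc* encodes CD45, a phosphatase that can act on JAK kinases. It was at 1043, 719 and 1016 CPM in MAC-1+ and 544, 294 and 254 CPM in MAC-1- HSCs, with no overlap (log2 fold change 1.35, SE 0.28, adjusted p = 0.0210 by edgeR). *Gbp2*, a guanylate-binding protein induced by interferon, was at 335, 138 and 154 CPM in MAC-1+ and 17.1, 47.2 and 48.7 CPM in MAC-1- HSCs, again with no overlap (log2 fold change 2.47, SE 0.50, adjusted p = 0.0186 by edgeR).

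*Tceb2*, which encodes elongin B, a partner of the SOCS box, fell by 1.08 on the log2 scale (SE 0.21, adjusted p = 0.0156 by edgeR). It went from 886, 1303 and 1047 CPM in MAC-1- to 548, 580.3 and 398 CPM in MAC-1+ HSCs. The list of SOCS box partners held elongin, cullin and ring genes among others, and whether each serves SOCS proteins was not tested. Of its 8 tested genes, 1 was called lower and 0 higher, 2 had a positive log2 fold change and 5 did not overlap between groups. The median of the list was -0.56. Over all genes 1.37% were called lower, 52.4% had a positive log2 fold change, 21.7% did not overlap and the median was 0.07. *Tceb1*, for elongin C, and *Rbx1*, for a ring protein, had log2 fold changes of -0.89 and -0.76, under the threshold on the fold change. Their adjusted p were 0.0429 and 0.0128 by edgeR. *Rnf7*, for the other ring protein of the list, was at -0.47 (adjusted p = 0.517 by edgeR). *Cul5*, for a cullin, was at 0.23 (adjusted p = 0.967 by edgeR).

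**Figure D4:**
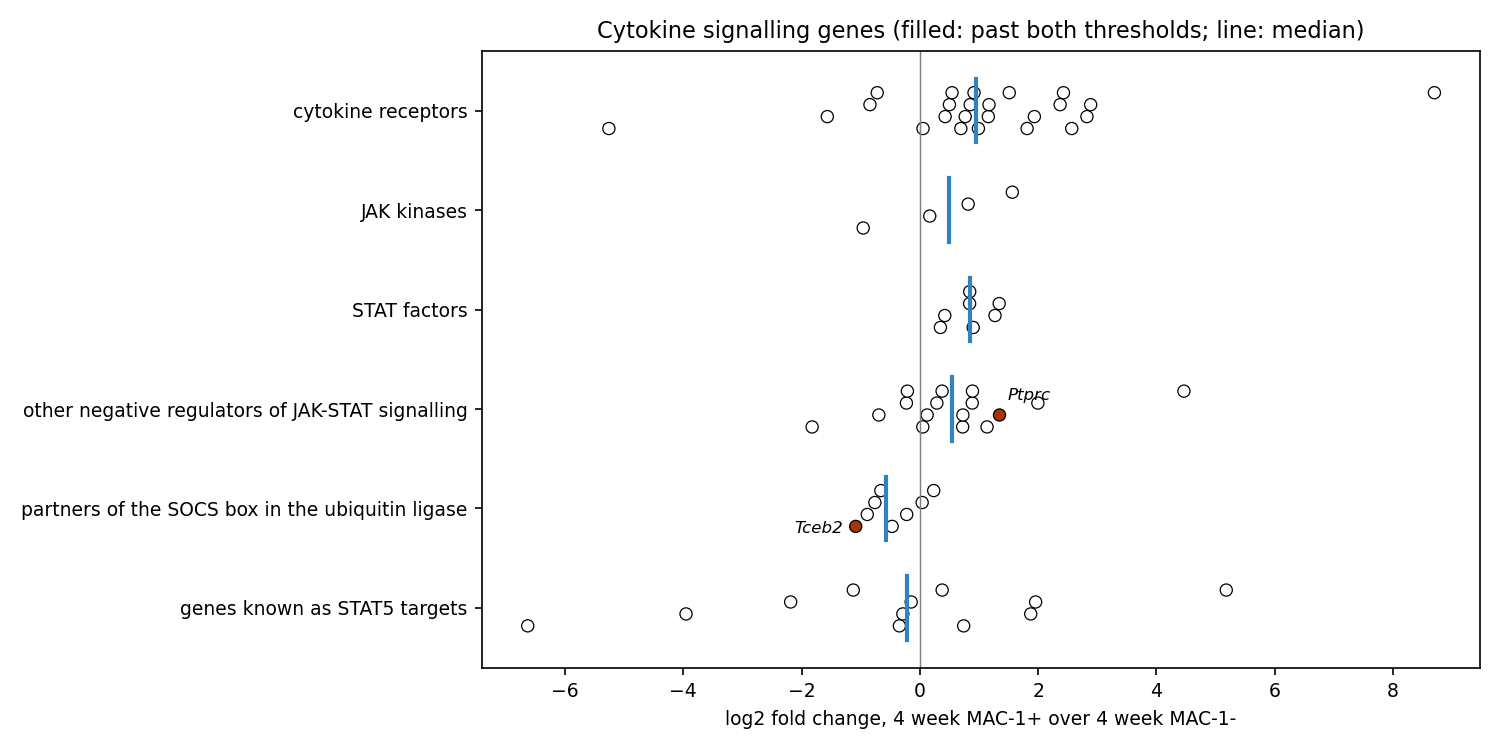
Log2 fold change of 71 of the cytokine signalling genes in 4 week MAC-1+ over 4 week MAC-1- HSCs, in 6 lists, with 1 point per gene, filled and named where edgeR called it, and a line at the median of each list. The STAT factors all lie to the right of 0, at a median of 0.84. Most genes listed as partners of the SOCS box lie to the left, at a median of -0.56, and 2 genes are filled.

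For the lists that follow, the background in 4 week MAC-1+ against MAC-1- HSCs was 13.4% of all genes at an unadjusted p below 0.05 by edgeR. Of all genes, 52.4% had a positive log2 fold change, edgeR called 2.47%, DESeq2 8.61% and limma-voom 697 of 13661. Of the 7 tested STAT genes, edgeR called 0, DESeq2 1 and limma-voom 0, and 1 had an unadjusted p below 0.05 by edgeR. Their log2 fold changes in that comparison were all positive, from 0.35 to 1.34, with a median of 0.84. The 4 JAK genes ran from -0.96 to 1.56, with 0 called by edgeR, DESeq2 and limma-voom and 1 at an unadjusted p below 0.05. *Jak1* was at 739, 607 and 486 CPM in MAC-1+ and 373, 338 and 329 CPM in MAC-1- HSCs (log2 fold change 0.82, SE 0.25, adjusted p = 0.141 by edgeR). Of 24 tested cytokine receptors edgeR called 0, DESeq2 1 and limma-voom 0, 2 had an unadjusted p below 0.05, 20 had a positive log2 fold change, and the median was 0.95. The counts at an unadjusted p below 0.05 among STAT genes (1 of 7) and receptors (2 of 24) were close to or under the share over all genes. *Kit*, the receptor for stem cell factor, was at 0.99 with an adjusted p of 0.0752 by edgeR, just under the threshold on the fold change. Of 12 tested genes known as STAT5 targets, *Cish* and *Socs2* aside, edgeR called 0, DESeq2 3 and limma-voom 1, 4 had an unadjusted p below 0.05 and 5 a positive log2 fold change, with a median of -0.22. Of 16 genes listed as other negative regulators of signalling, not all of them specific to JAK and STAT, 1 was called, *Ptprc*. A positive log2 fold change was seen for 12 of them, and the median of the list was 0.55.

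In the other comparisons few of the 85 genes were called by edgeR. Against SS MAC-1- HSCs, 4 of 85 were higher in 4 week MAC-1+ HSCs, where 1.7% of all genes were called. These were *Jak1* (log2 fold change 1.08, adjusted p = 0.0595), the serine/threonine kinase *Pim1*, a STAT5 target (2.45, adjusted p = 0.0834), and the receptors *Flt3* (adjusted p = 0.0882) and *Csf2rb2* (adjusted p = 0.0246). *Csf2rb2* was at 25.3, 17.6 and 11.6 CPM in MAC-1+ and had 0, 1 and 0 counts in SS MAC-1- HSCs, and *Flt3* was at 2.28, 19.7 and 23.4 CPM against 1.17, 0.105 and 0.103 CPM. *Fos*, an immediate-early gene, was higher in 4 week MAC-1low (log2 fold change 1.02, adjusted p = 0.0295) and 4 week MAC-1+ HSCs (1.27, adjusted p = 0.00839) than in SS MAC-1low HSCs, and *Ptprc* was higher in 4 week MAC-1+ than in SS MAC-1low HSCs (1.51, adjusted p = 0.0387). These were 1 of 85 for 4 week MAC-1low and 2 of 85 for MAC-1+, beside 0.0439% and 1.02% of all genes. *Kit* was lower in 4 week than in SS MAC-1- HSCs (-1.22, adjusted p = 0.0927), as the 1 of 85 called there, beside 0.381% of all genes. In the comparisons of 4 week MAC-1low with MAC-1-, of SS MAC-1low with MAC-1- and of 4 week MAC-1+ with MAC-1low HSCs, edgeR called 0 of the 85, with 15, 7 and 6 at an unadjusted p below 0.05. Over all genes the shares at that p were 7.25%, 9.36% and 6.85%, so that 7 and 6 of 85 were near the background. In these 3 comparisons DESeq2 called 1, 4 and 1 of the 85 and 348, 699 and 269 of all genes, and limma-voom called 2, 0 and 0 of the 85 and 205, 0 and 1 of all genes.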

How the data were processed

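RNA of LSK SLAM HSCs was amplified with SMART-Seq v4, a full-length method without molecular identifiers. The authors deposited raw counts of reads per gene, made with STAR in the nf-core RNA-seq pipeline. Not given in the sources used here are the counter, its strand setting, the build and the gene models. Columns were assigned to samples by their labels. Of 46078 genes, 13661 passed edgeR's default filter (minimum count 10). EdgeR 4.0.16 in R 4.3.3 fitted all 16 samples with a mean per population (TMM, robust quasi-likelihood), with 8 contrasts and 1 interaction and Benjamini-Hochberg adjustment over all genes. DESeq2 1.42.0 and limma 3.58.1 (voom) were alternatives, as were other filters, scalings, samples and a replicate block. The adjusted p of DESeq2 was missing for *Socs3*. Intervals are on the scale of edgeR's fit. CPM are TMM-scaled, log2 CPM used a prior count of 2, and positions and lengths came from GENCODE M21, which matched 98.2% of identifiers. The tests were tried on simulated counts.

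The members and lists were chosen with earlier results of these data known. All 8 members were named in every population. Statistics were given for 4 week MAC-1+ against MAC-1- HSCs and wherever an unadjusted p was below 0.05. Outside this rule, they were also given for *Socs2* in the remaining comparisons and for *Cish* in 4 week against SS MAC-1low HSCs. Listed genes were named where called, up to 5 per group. Genes named outside this rule (*Tceb1*, *Rbx1*, *Rnf7*, *Cul5*, *Kit* and, against 4 week MAC-1- HSCs, *Jak1*) were chosen after their values were seen. For likeness, 3 genes by Pearson's r were named for members with a mean of at least 50 counts. Of the genes and lists computed, 1 gene and 1 list are not reported here. Samples of the same replicate number did not go together: their deviations correlated at -0.02 to 0.04. The library names follow an order that sets the gates side by side in part otherwise than the replicate numbers. A pairing of gates by that order was not tested.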

Additional observations from a re-analysis of the deposited data

Results flagged for a closer look

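In the population with 4 samples, 4 week MAC-1low, each member was searched for a sample far from the rest. Of 8 genes, 2 had one, and by chance about 1 in 20 groups of normally distributed values would. Whether these CPM follow that distribution was not checked, and *Socs3* had 0 to 101 counts in these samples. Both were high in replicate 4. *Socs3* was at 3.78 CPM in that sample and at most 0.230 CPM in the other 3, a gap of 0.939 of the whole range. *Socs5* was at 92.5 CPM there and at most 48.4 CPM in the other 3, a gap of 0.947 of the range.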

How the results depend on the processing

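The counts of called members moved as follows, and the cause was not tested. For 4 week MAC-1+ against MAC-1- HSCs, 1 member (*Socs2*) was called, and leaving out single samples gave 0 to 1. For 4 week MAC-1low against MAC-1-, DESeq2 and limma-voom called 1 and leaving out samples gave 0 to 1. DESeq2 called 1 for 4 week against SS MAC-1low. From SS MAC-1- to 4 week MAC-1+, DESeq2 called 3, and a fit of only both groups and a threshold of 0.05 gave 0. The last 2 gave 0 also against SS MAC-1low, and leaving out samples gave 0 to 1 in both. With the replicate number as a block, *Socs2* kept its call against 4 week MAC-1- (log2 fold change 1.89, adjusted p = 0.0798), while both counts against SS became 0 and no other count of members changed. Samples of the same number did not go together (6 of 16 correlated best with their own), and 4 week MAC-1low replicate 4 shares its number with no other sample. A block by the order of the library names was not fitted. Of the 85 listed genes, 3 were called for 4 week MAC-1+ against MAC-1-, beside 11 by DESeq2, 6 by limma-voom, 5 with DESeq2's size factors, 7 without the threshold on the fold, 0 in a fit of only both groups and 2 to 6 on leaving out samples (6 without 4 week MAC-1+ replicate 1). Over all genes that comparison gave 338 calls by edgeR, 1112 by DESeq2 and 697 by limma-voom.

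Signs turned for 3 members in that comparison, none of them called. *Socs1* was at -1.18 in edgeR, 0.62 in limma-voom, 2.14 with the block and 5.29 without 4 week MAC-1- replicate 2 (range on leaving out samples -2.50 to 5.29). *Socs3* was at 0.06 in edgeR, -1.16 in limma-voom, -0.45 with the block, -0.07 without MAC-1- replicate 3 and -2.36 without MAC-1+ replicate 1 (range -2.36 to 0.61). *Cish* ranged from -0.33 to 1.64. *Socs1* and *Socs3* had 0 to 187 counts per sample, which limits the precision of their fold changes.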
